A study of Mus musculus with 3 samples.

Results

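The genes described here are 10 Frizzled and canonical Wnt signalling genes, chosen by gene symbol: the receptors Fzd4 and Fzd6, the co-receptors Lrp5 and Lrp6, the receptor co-factor Tspan12, the nuclear effectors Lef1, Tcf7l1 and Tcf7l2, and the targets Axin2 and Apcdd1. Of the 17583 genes in the table of normalized counts, 9 are of this group. Lef1 has no row in the table, so its level was not analysed here. The RNA was bound to ribosomes immunoprecipitated from hearts of 3 EC-RiboTag mice of the genotype Cdh5-CreERT2;Rpl22tm1.1Psam. In these animals tamoxifen activates a Cre recombinase under the control of the Cdh5 promoter, and Cre then adds a hemagglutinin tag to the ribosomal protein Rpl22. Cdh5 is a gene of the entire endothelium, so capillary, arterial, venous, endocardial and lymphatic cells are pooled. The sample labels place the hearts at day 7 after coronary ligation, whereas the RiboTag methods mention no infarction, and the labels do not spell out the letters Rz in the sample titles. A separate qRT-PCR experiment of the study used EC-RiboTag RNA of the remote zone, abbreviated RZ, and of the border and infarct zones at day 7 after infarction, and whether the libraries described here came from whole hearts or from a zone was not settled. Neither the age of these 3 mice nor the zone of the heart is given in the labels. There is 1 condition, no input or control library was analysed here, and a value here is a level in the precipitated RNA, not an enrichment over the heart.

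In the canonical Wnt pathway, secreted ligands of the Wnt family, or Norrin in the case of Fzd4, bind a Frizzled receptor together with Lrp5 or Lrp6. This blocks the destruction complex of Axin, Apc and Gsk3 and lets β-catenin bind to transcription factors of the Tcf and Lef family. In endothelium, the pathway is best known for the growth of retinal vessels and for the blood-brain barrier.

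The normalized counts summed to 7149102, 7158585 and 7268785 in mice 1, 2 and 3. Because scaled reads were rounded, some low whole numbers occur too rarely or too often, and from these gaps the worth of 1 read was estimated as 0.977, 1.06 and 0.961. Depth, in reads counted in genes of the table after duplicates and other filtered reads were removed, was therefore about 7320000 in mouse 1, 6755000 in mouse 2 and 7566000 in mouse 3. The libraries differ in sex-linked RNA: Ddx3y, a gene of chromosome Y, was at 1080 in mouse 1, at 3 in mouse 2 and at 1 in mouse 3, and Xist, the RNA of the inactive X chromosome, was at 4, 618 and 869. Mouse 3 had the highest normalized count of the immediate early gene Fos, with 652 against 252 in mouse 1 and 220 in mouse 2. The 8 endothelial markers were all present in each mouse, with summed levels of 5183, 4993 and 4966 normalized counts per kilobase of canonical transcript and a median of 690.3, and the highest per kilobase was Pecam1, an endothelial adhesion molecule, with 746.5. Markers of other cells were present too. The 8 cardiomyocyte genes had a median of 423 per kilobase, summed to 3479.9, 3534 and 3422 per kilobase and were led by Myl2, a myosin light chain gene, with 819. Their normalized counts summed to 18184, 19502 and 22509, highest in mouse 3 through the long genes Ttn, with 7379, 7743 and 10190, and Ryr2, with 3280, 3667 and 4486, while Myh7 had 369, 729 and 716. The 6 fibroblast genes had a median of 91.4 per kilobase. None of these cardiomyocyte and fibroblast markers was at 0 in any mouse, and the share of other cells in the level of the Wnt genes was not tested. Duplicate removal compresses levels as high as those of the leading endothelial and cardiomyocyte markers. Their medians therefore do not measure how much RNA came from each cell type. In a bulk sample such as this, fewer cells of a type and less RNA per cell cannot be told apart.

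Among the 9 genes, the receptors, co-receptors and nuclear effectors all lay above the targets Axin2 and Apcdd1. Levels of different genes were compared per kilobase, since read numbers grow with transcript length. Per kilobase of canonical transcript, the 9 genes spanned a 49.0-fold range in the order Tspan12, Lrp5, Fzd4, Tcf7l1, Fzd6, Lrp6, Tcf7l2, Axin2 and Apcdd1. The first 7 of these lay above 73.0, the median level per kilobase of all genes with a length, and Axin2 and Apcdd1 lay below it. Of the 8 neighbouring pairs in this order, 6 lay further apart than the larger SD of each pair. The exceptions were Lrp5 and Fzd4, which kept their order in 2 of 3 mice, and Tcf7l1 and Fzd6, which kept it in 1 of 3. Per kilobase of all annotated exons, Fzd4 moved from place 3 to place 1, ahead of Tspan12 and Lrp5, and the order of the other 6 was as before.

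**Figure D1:**
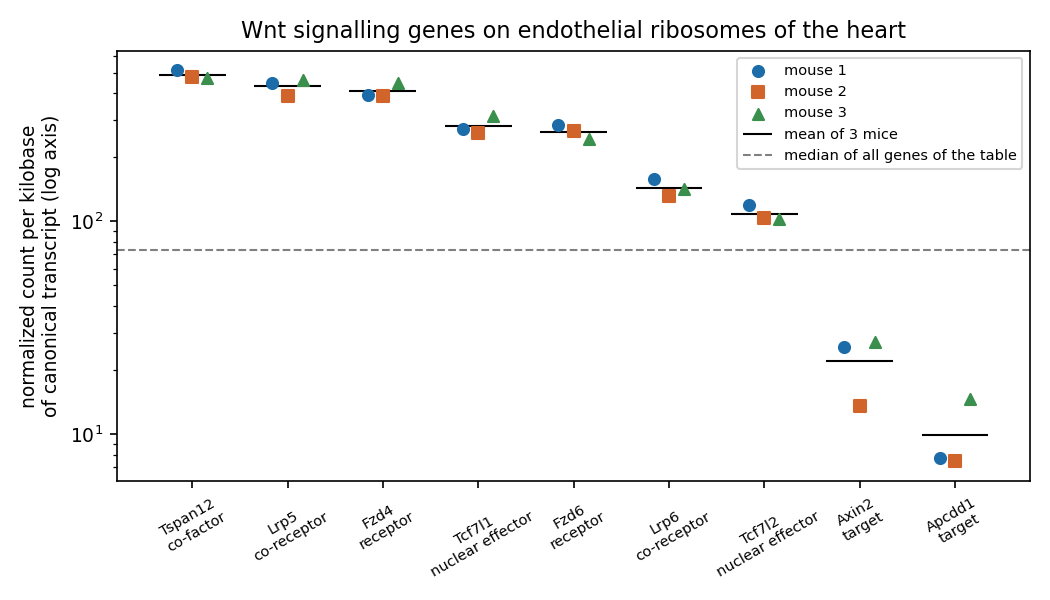
Normalized counts per kilobase of canonical transcript (log axis) for the 9 Wnt genes of the table in mice 1, 2 and 3, with the mean as a black line and the median of all genes of the table as a dashed line. Tspan12, Lrp5 and Fzd4 lie highest, with means of 486, 432 and 409 per kilobase, whereas Axin2 and Apcdd1 lie below the dashed line at 73.0.

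Fzd4, the receptor for Norrin and for several Wnt proteins, reached normalized counts of 2648 in mouse 1, 2617 in mouse 2 and 2989 in mouse 3. Mouse 3 was highest and the other two were close to each other. The mean of 2751 ± 206 (SD, n = 3) placed Fzd4 at rank 55 of the 17583 genes by normalized count. The gene (ENSMUSG00000049791) occupies bases 89053563 to 89062342 of chromosome 7 (GRCm39, plus strand), and its canonical transcript has 2 exons and 6720 bases. Per kilobase it had 409 ± 30.7 (SD, n = 3) and ranked 1072 of 17475 genes with a length, so that the rank by normalized count reflects a long transcript in part. Per kilobase of all exons it ranked 179.

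Fzd6, a Frizzled receptor best known from planar cell polarity in skin and hair, had normalized counts of 1223, 1151 and 1052, with mouse 1 highest and mouse 3 lowest. Mouse 3, the highest for Fzd4, was thus the lowest for Fzd6. Its mean was 1142 ± 85.9 (SD, n = 3), or 264 ± 19.8 per kilobase. The gene (ENSMUSG00000022297) occupies bases 38869429 to 38901583 of chromosome 15, plus strand. The log2 ratio of Fzd4 to Fzd6 per kilobase was 0.48, 0.55 and 0.87 in mice 1, 2 and 3. Fzd4 exceeded Fzd6 in each mouse, with a mean log2 ratio of 0.63 ± 0.21 (SD, n = 3), or 1.55-fold (exact sign-flip permutation test, two-sided p = 0.25, adjusted p = 0.25 over 5 pairs). With 3 mice this test cannot give a p below 0.25, and all 5 pairs tested here gave that value. Per kilobase of all exons the log2 ratio was larger, with 1.27.

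All 10 Frizzled genes were present in the table, and Fzd4 and Fzd6 made up most of their summed level. Per kilobase, Fzd4 took 43.0%, 44.3% and 46.3% of the sum over the 10 genes in mice 1, 2 and 3, a mean of 44.5 ± 1.7% (SD, n = 3). Fzd6 took 28.8 ± 3.0%, with the lowest share, 25.3%, in mouse 3. The next were Fzd1 with 8.2 ± 1.2%, Fzd8 with 7.89 ± 0.81% and Fzd7 with 5.72 ± 0.80%. Fzd1 and Fzd8 differed by less than the SD of Fzd1. Fzd9 had normalized counts of 4, 3 and 6, and Fzd10 had 9, 1 and 15, both at the lower end of what the table holds. Per kilobase of all exons, the share of Fzd4 was 51.0 ± 1.4% and that of Fzd6 21.2 ± 2.4%.

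Tspan12, a tetraspanin that assists Norrin signalling through Fzd4, had normalized counts of 1329, 1234 and 1218. The 3 mice lay close together, with a coefficient of variation of 4.76%, the lowest of the 9 genes. Tspan12 was also the highest of the 9 per kilobase of canonical transcript, and duplicate removal compresses the spread increasingly at high levels. The part of this in its low variation was not tested. Its mean was 1260.3 ± 60.0 (SD, n = 3), or 486 ± 23.1 per kilobase, which ranked 609 of 17475. The gene (ENSMUSG00000029669) occupies bases 21771394 to 21852514 of chromosome 6, minus strand. Per kilobase of canonical transcript, the log2 ratio of Fzd4 to Tspan12 was -0.38, -0.29 and -0.08 in mice 1, 2 and 3. Fzd4 was below Tspan12 in each mouse, by a mean of -0.25 ± 0.15 on the log2 scale (SD, n = 3; exact sign-flip permutation test, two-sided p = 0.25). This direction rests on the transcript length, because the log2 ratio was 0.44 per kilobase of all exons and 1.12 without division by length. The 43 annotated transcripts of Tspan12 extend its exons from 2592 to 4277 bases, whereas those of Fzd4 extend from 6720 to 6852 bases. The genes whose levels per kilobase were most like those of Tspan12 over the 3 mice were Efcab14, Ankrd40 and Nudt9, with Euclidean distances of 0.0057, 0.027 and 0.037 on the log2 scale among 11943 genes compared.

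The co-receptors Lrp5 and Lrp6 are related single-pass proteins that bind Wnt together with a Frizzled. Lrp5 had normalized counts of 2299, 2010 and 2392, and Lrp6 had 1532, 1275 and 1380. Both were lowest in mouse 2. The mean of Lrp5 was 2234 ± 199 (SD, n = 3), or 432 ± 38.5 per kilobase, and that of Lrp6 was 1396 ± 129, or 144 ± 13.3 per kilobase. Lrp5 exceeded Lrp6 per kilobase in each mouse, with log2 ratios of 1.49, 1.57 and 1.70. The mean log2 ratio was 1.59 ± 0.11 (SD, n = 3), or 3.00-fold (exact sign-flip permutation test, two-sided p = 0.25). Per kilobase of all exons it was 1.33, and without division by length 0.68. Lrp5 (ENSMUSG00000024913) occupies bases 3634828 to 3736564 of chromosome 19, and Lrp6 (ENSMUSG00000030201) bases 134423439 to 134543928 of chromosome 6, both on the minus strand. Both canonical transcripts have 23 exons, and the transcript of Lrp6 is the longer one with 9704 bases against 5169.

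Of the 22 genes listed as Wnt receptors and co-receptors, all were in the table and 19 reached 10 normalized counts in every mouse. Of all genes in the table, 78.7% did so. The 6 highest per kilobase were Tspan12, Lrp5, Fzd4, Ryk, Fzd6 and Adgra2. Ryk, an atypical receptor for Wnt, had 342 per kilobase of canonical transcript but 74.1 per kilobase of all exons, where Lrp6 with 90.5 and Fzd1 with 75.5 lay above it. With that length, Adgra2 with 176.1 also lay above Fzd6 with 166.5. Adgra2, which works with Reck as a co-activator for Wnt7 proteins in brain endothelium, had normalized counts of 1018, 1055 and 1565, with mouse 3 highest. Reck was also highest in mouse 3, with 395, 353 and 596. Lgr5, a receptor for R-spondins, was at the other end with 7, 1 and 3.

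Ligands were low. Of 26 genes for Wnt ligands, Norrin, R-spondins and Wnt secretion, 15 had a row in the table and 11 reached 10 in every mouse. The genes Wnt1, Wnt3, Wnt3a, Wnt6, Wnt7b, Wnt8a, Wnt8b, Wnt10a, Wnt10b, Rspo2 and Rspo4 had no row and were not analysed here. The highest per kilobase was Wls, which carries Wnt proteins to the cell surface, with normalized counts of 568, 531 and 585, or 157 ± 7.7 per kilobase (SD, n = 3). It was the single gene of this list above the median of all genes. Porcn, the enzyme that attaches the lipid to Wnt proteins, had 169, 76 and 130. Among the secreted factors Wnt9a was highest per kilobase with 38.6, followed by Wnt9b with 32.9, Wnt2 with 23.9 and Rspo1 with 22.2. With the length of all exons, Wls fell to 41.4 per kilobase, still above the median of 39.05 on that scale, and Wnt2 to 6.77, below Rspo1 with 19.5, Wnt11 with 11.1, Rspo3 with 10.5 and Wnt4 with 8.86. Wnt9b, a ligand known from the endocardium, had 162, 96 and 189, lowest in mouse 2. Rspo1 had 96, 20 and 29, and without mouse 1 its level was 11.2 per kilobase of canonical transcript, below Wnt11 with 17.3. Ndp, the gene for Norrin, had only 1, 0 and 9, and Wnt7a had 2, 1 and 5.

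The cytoplasmic relay was present throughout. All 19 listed genes reached 10 in every mouse and 16 lay above the median of all genes per kilobase. Casein kinase 1 genes and β-catenin led the list, with Csnk1e at 994 per kilobase, Csnk1d at 719, Ctnnb1 at 712 and Csnk1a1 at 649.9, followed by Csnk1g2 at 443 and Gsk3a at 394. This order rests on the canonical transcripts, because per kilobase of all exons Ctnnb1 with 318 and Gsk3a with 283 led the list and Csnk1e fell to 137. Ctnnb1, the gene for β-catenin, had normalized counts of 2634, 2594 and 2553. β-Catenin also serves cell adhesion at adherens junctions, so its level is not specific to Wnt signalling. The scaffold Axin1 had 210.4 per kilobase of canonical transcript, and its homolog Axin2 was the lowest gene of this list on that scale, whereas with the length of all exons Btrc, at 13.7, lay below Axin2, at 14.1.

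Among the nuclear effectors, Tcf7l1 exceeded Tcf7l2. Tcf7l1, which acts mostly as a repressor of Wnt targets, had normalized counts of 925, 880 and 1062, a mean of 956 ± 94.8 (SD, n = 3), or 281 ± 27.9 per kilobase. Tcf7l2, which can activate or repress them, had 492, 429 and 423, a mean of 448 ± 38.2, or 108 ± 9.2 per kilobase. The groups of values did not overlap, and mouse 3 was highest for Tcf7l1 and lowest for Tcf7l2. The log2 ratio of Tcf7l2 to Tcf7l1 per kilobase was -1.19, -1.32 and -1.61, with a mean of -1.37 ± 0.21 (SD, n = 3; exact sign-flip permutation test, two-sided p = 0.25), and -1.87 per kilobase of all exons. Tcf7l1 (ENSMUSG00000055799) occupies bases 72603361 to 72766237 of chromosome 6, minus strand, and Tcf7l2 (ENSMUSG00000024985) bases 55730252 to 55922086 of chromosome 19, plus strand.

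Of the summed level per kilobase of Tcf7, Tcf7l1 and Tcf7l2, Tcf7l1 took 68.7 ± 2.2%, Tcf7l2 26.6 ± 3.0% and Tcf7 4.73 ± 0.79% (SD, n = 3). Tcf7, a family member best known from T cells, had normalized counts of 59, 58 and 86. The fourth member of the family, Lef1, could not be set beside them. Of the 15 listed nuclear effectors, 14 had a row and all of these reached 10 in every mouse. The highest per kilobase were the short Groucho-type co-repressor Tle5 with 633, the β-catenin co-activator Pygo2 with 345, Tcf7l1 with 281, the co-repressor Tle3 with 226, Bcl9l with 133 and Tle4 with 128. With the length of all exons, Pygo2 at 304 per kilobase and Tle5 at 299.7 exchanged places, as did Bcl9l at 122 and Tle3 at 97.5.

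Axin2 and Apcdd1 were the lowest and the most variable of the 9 genes. Axin2, a negative feedback gene that is widely used as a readout of the pathway, had normalized counts of 113, 60 and 120, about 116, 56.6 and 125 reads. Mouse 2 lay apart from the other two. The mean was 97.7 ± 32.8 (SD, n = 3), or 22.1 ± 7.4 per kilobase, and its coefficient of variation of 33.6% exceeded the 10.1% that counting alone gives at this depth. Without mouse 2 the mean was 116.5. Apcdd1, a membrane-bound inhibitor that is induced by Wnt signalling, had normalized counts of 84, 81 and 159. Here mouse 3 was high and the other two were alike. The mean was 108 ± 44.2 (SD, n = 3), or 9.93 ± 4.06 per kilobase, with a coefficient of variation of 40.9% against 9.62% from counting. Without mouse 3 the mean was 82.5. The mouse that stood apart was thus not the same for these 2 genes. Axin2 (ENSMUSG00000000142) occupies bases 108811175 to 108841609 of chromosome 11, and Apcdd1 (ENSMUSG00000071847) bases 63055302 to 63094250 of chromosome 18, both on the plus strand. Per kilobase, the log2 ratio of Axin2 to Apcdd1 was 1.73, 0.86 and 0.89 in mice 1, 2 and 3. Axin2 exceeded Apcdd1 in each mouse, by 1.16 ± 0.49 on average (SD, n = 3; exact sign-flip permutation test, two-sided p = 0.25), whereas without division by length the mean log2 ratio was -0.14.

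A coefficient of variation over 20% was found for 2 of the 9 genes, Axin2 and Apcdd1, and for 14.9% of the 11956 genes with a mean of 50 or more, or 1785 genes, a number that was 1074 without mouse 1. Without mouse 2 only Apcdd1 exceeded 20%, and without mouse 3 only Axin2. At the level of these 2 genes such a spread is common, since 44.6% of the 1865 genes with a mean between 50 and 150, a range chosen after these levels were seen, exceeded 20%. The other 7 Wnt genes varied by 4.76 to 9.92%, and the median of the 9 genes was 8.92% against 8.48% for these 11956 genes. The SD of each of the 9 genes exceeded that of counting alone, by a factor between 1.69 for Tspan12 and 4.25 for Apcdd1. The same was true of 80.6% of the 11956 genes, with a median factor of 1.82, so that such an excess is common among separate mice. None of the 9 genes was highest in mouse 2, where 32.1% of the 11956 genes were highest, and 6 of the 9 were lowest there, against 29.5% of the 11956 genes. In mouse 3, 5 were highest, against 30.2% of the 11956 genes, and 3 were lowest. In mouse 1, 4 were highest, against 37.7%, and 0 were lowest. Fzd4 and Apcdd1, both lowest in mouse 2, were nearly as low in mouse 1, with 2617 against 2648 and 81 against 84. Their counting SDs were 52.4 and 10.4.

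Markers of endothelial subtypes and of other cells also differed between the mice. Among the endocardial markers, Npr3 had normalized counts of 1589, 914 and 2228 and was lowest in mouse 2, whereas Plvap, with 785, 852 and 937, and Nfatc1, with 1305, 1386 and 1658, were lowest in mouse 1. Vwf had 1898, 1886 and 3098, nearly equal in mice 1 and 2. The summed level of the 4 endocardial markers per kilobase was 1403, 1222 and 1903, with Npr3 the most abundant per kilobase. On the same scale, the summed level of the 4 lymphatic markers was 460, 574 and 671, with Flt4 the most abundant, and that of the 6 fibroblast markers 507, 502 and 649, with Lum the most abundant. Mural markers summed to 261, 324 and 348, with Rgs5 the most abundant. The 5 leukocyte markers with a row summed to 124, 183 and 183, with Lyz2 the most abundant, and Cd3e had no row. No marker of the lists given here that has a row was at 0 in any mouse. The summed levels of endocardial, lymphatic, fibroblast and mural markers were each highest in mouse 3. Of the 9 Wnt genes, 5 were highest there too, namely Fzd4, Lrp5, Tcf7l1, Axin2 and Apcdd1. All 4 endocardial genes were highest in mouse 3, but the genes of the other lists differed. Of the fibroblast genes, Dcn, with normalized counts of 813, 579 and 1007, and Lum, with 458, 309 and 618, were lowest in mouse 2 as Axin2 was and highest in mouse 3, whereas Col1a1, with 378, 642 and 401, and Col1a2, with 454, 669 and 531, were highest in mouse 2. Pdgfra, with 196, 203 and 258, and Tcf21, with 16, 29 and 45, were lowest in mouse 1 and highest in mouse 3. The mural gene Rgs5 was lowest in mouse 3, with 542, 615 and 505, Cspg4 was highest in mouse 2 and Kcnj8 in mouse 1, while Pdgfrb, with 212, 254 and 280, Myh11, with 31, 118 and 240, and Acta2, with 67, 128 and 210, were highest in mouse 3. The lymphatic genes Lyve1 and Flt4 were highest in mouse 3, and Prox1 and Pdpn in mouse 2. The part of these markers in the values of Axin2 and Apcdd1 was not tested.

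Other genes under Wnt control covered a wide range. Of 23 listed targets, 17 had a row and 13 reached 10 in every mouse, and Lef1, Rnf43, Fgfbp1, Mfsd2a and Foxf2 were among those with no row. The highest per kilobase were Cldn5, a tight junction gene, with 709, Ccnd1, the gene for cyclin D1, with 699.9, Plvap with 409, the transcription factor Sox17 with 370.3, the efflux transporter Abcb1a with 204 and Nkd1 with 81.7, close to the glucose transporter Slc2a1 with 80.6. With the length of all exons, Nkd1 had 30.6 per kilobase and lay below Slc2a1 with 76.4 and Myc with 59.7. Plvap, also one of the endocardial markers above, encodes a protein of fenestrated endothelium that Wnt signalling represses in brain vessels. Here its level of 409 per kilobase of canonical transcript became 223 per kilobase of all exons. Mfsd2a, a gene of barrier endothelium, was not analysed here for want of a row. Most of these genes also answer to other signals. Lower in the list were Znrf3 with 77, 88 and 113 normalized counts, Sp5 with 24, 6 and 21, and Notum with 3, 4 and 2. Nkd1, a feedback inhibitor, had 197, 209 and 352, and like Apcdd1 was highest in mouse 3.

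Inhibitors were also spread widely. Of 21 listed genes, 17 had a row and 13 reached 10 in every mouse, and Dkk1, Dkk4, Sostdc1 and Rnf43 had no row. Ctnnbip1, which keeps β-catenin from Tcf proteins, was highest with normalized counts of 1798, 1733 and 1629, or 616 per kilobase. Kremen1, a co-receptor for Dkk proteins, had 182 per kilobase, Sost, the gene for the Lrp5 and Lrp6 inhibitor sclerostin, 149, and Nkd1 81.7. Kremen2 had 36.2 and the secreted Frizzled-related gene Sfrp2 19.7. With the length of all exons, Sost at 149 per kilobase lay above Kremen1 at 72.2, and Kremen2 at 32.3 lay above Nkd1 at 30.6. Sost had normalized counts of 340, 197 and 389, lowest in mouse 2. Of the 10 inhibitors at a mean of 50 or more, 7 had a coefficient of variation over 20%, against 3 of 16 receptors, 3 of 6 ligands and secretion genes, 1 of 19 relay genes, 3 of 14 nuclear effectors and 6 of 12 targets. Of all genes with that mean 14.9% exceeded that limit, and 44.6% of those with a mean between 50 and 150. In that range lay 6 of the 10 inhibitors, 5 of the 6 ligands and secretion genes and 4 of the 12 targets. Of the other lists, 3 of the 14 nuclear effectors, 1 of the 16 receptors and 1 of the 19 relay genes lay there. The lists were not tested against each other, and Axin2, Apcdd1, Nkd1, Tcf7 and Znrf3 each count in 2 of them.

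**Figure D2:**
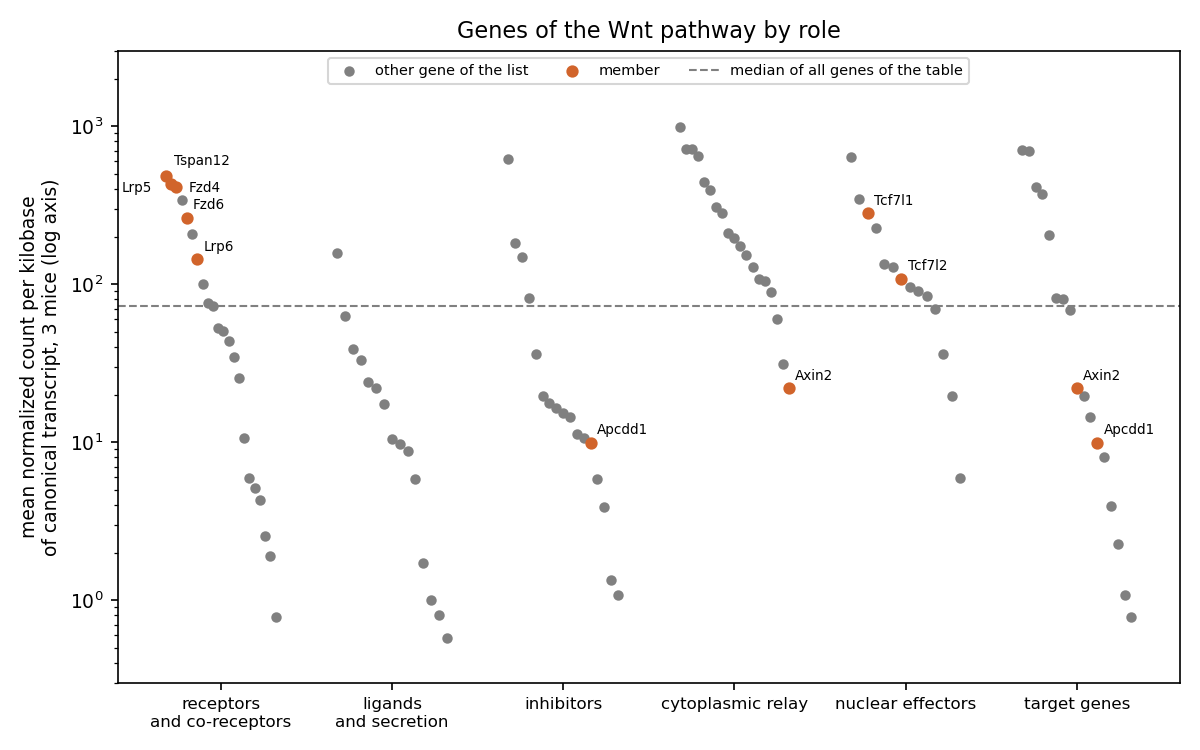
Mean normalized count per kilobase of canonical transcript over 3 mice (log axis) for each gene with a row in the table, sorted by level within 6 lists of Wnt pathway genes, with the genes described here in orange and the median of all genes of the table as a dashed line at 73.0. Of the relay genes 16 of 19 lie above the line, and of the ligands and secretion genes 1 of 15.

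Sequences at annotated transcription starts of the genes were searched for the core of the Tcf and Lef binding site, ATCAAAG, on both strands. RefSeq windows of 300 bases at annotated starts (GRCm38.p6) were at hand for 6 of the 10 genes, Fzd4, Tspan12, Lef1, Tcf7l1, Tcf7l2 and Axin2, and not for Fzd6, Lrp5, Lrp6 and Apcdd1. Tcf7l2 and Lef1, both on the plus strand, had more than 1 window. Those of Tcf7l2 begin at bases 55741560 and 55895071 of chromosome 19. Those of Lef1 begin at bases 131110047, 131110073, 131112541 and 131156044 of chromosome 3. The later windows of these genes thus lie downstream of the first start. None of their 10 windows held the core, which 3.73% of all 32851 windows hold. The windows of Fzd4, Tcf7l1 and Axin2 had a G and C content of 72.7, 75.3 and 70.0%, against a median of 52.7% for all windows, and that of Tspan12 had 44.0%. The windows of Tcf7l2 differed, with 70.0% at the first start and 42.0% at the later one. Those of Lef1 differed too, with 67.3, 67.3, 51.7 and 43.7% in the order of their starts.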

How the data were processed

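Per the study's methods, the authors trimmed reads of 72 bases with Trimmomatic 0.39, aligned them to mm39 with STAR 2.7.11a, removed duplicates (Picard 3.1.1) and multi-mapping, ribosomal and mitochondrial reads, and counted reads per gene by strand with featureCounts 2.0.4. The deposited values are treated as a score: counts that the authors divided by a size factor of DESeq2 1.36.0 per library and rounded. No count test was therefore run. Duplicate removal leaves about 1 single-end read per position and strand, so levels, and their spread between mice, are compressed increasingly towards 1000 per kilobase. This includes Ctnnb1, the other high relay genes and the high endothelial and cardiomyocyte markers. No gene of the table has all values below 4.

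Lengths came from GENCODE M39 (GRCm39, the same build), which holds 17475 of the 17583 identifiers. No other gene on the same strand shares canonical exons with the 9 genes. Pairs were compared by log2 ratios within each mouse with an exact sign-flip test. The labels call the libraries biological replicates. Scripts were tested on simulated data. Members and gene lists were chosen with earlier results of these data known. Genes named are the members, the 6 highest of each list per kilobase, genes without a row, markers, and the 3 genes most like the top member. Xist, Ddx3y, Fos and further list genes were singled out after their values were seen. Some listed genes are not reported here. Protein sequences were not analysed here. Computations used Python 3.11.15, numpy 2.4.6, pandas 2.3.3 and matplotlib 3.10.9.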

Additional observations from a re-analysis of the deposited data

How the results depend on the processing

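Scaling by trimmed means (30% of log ratios and 5% of levels trimmed) or to equal totals changed no mean level of the 9 genes by more than 0.25%. The means could hardly move, since the factors of the mice lay close to 1 on both sides, with 0.994, 0.995 and 1.011 for equal totals. The SD moved more: with equal totals, that of Fzd4 went from 206 to 180 and that of Fzd6 from 85.9 to 95.5. Of 15 alternative ratios over all mice, 12 kept their sign, and of the 10 that change the length 3 turned. The log2 ratio of Fzd4 to Tspan12 turned to 0.44 with the length of all exons and to 1.12 without division by length, and that of Axin2 to Apcdd1 turned to -0.14 without division by length (exact permutation test, p = 0.75). These turns follow from the transcript lengths. A pseudocount of 5 turned none. Leaving out a mouse could turn none, since each ratio had a single sign in all 3 mice. With 2 mice the sign-flip test cannot give a p below 0.5.

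The number of genes with a coefficient of variation over 20%, 1785, was 749 with a mean of at least 200 and 6305 with no minimum, and lay between 1074, without mouse 1, and 1954. Of the 9 genes, 2 exceeded it, 0 with a mean of at least 200, and between 1 and 2 with a mouse left out: Apcdd1 alone without mouse 2, and Axin2 alone without mouse 3. With a minimum of 50 in every mouse in place of 10, the ligand list fell from 11 to 5 genes and the inhibitor list from 13 to 8. The 2 planned ratios to Lef1 were not run.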
